A study of Mus musculus with 8 samples.

Results

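Cytochrome P450 enzymes are haem proteins that insert oxygen into lipids, hormones and foreign chemicals. Most sit in the endoplasmic reticulum and take electrons from the reductase encoded by Por, whereas a few sit in mitochondria and are served by Fdxr and Fdx1. In the colon, families CYP2 and CYP3 meet drugs and dietary chemicals, and family CYP4 shortens the action of fatty acids and leukotrienes. Other families make or break down sterols, steroid hormones and retinoic acid. The genes described here are the annotated genes whose name begins with Cyp and a digit, without Cyp2e1 and without names that end in -ps, and with a mean of at least 1 TPM over 8 libraries. TPM is a length-corrected level, relative to all transcripts of a library. Of 131 annotated Cyp genes, 30 have names that end in -ps and 1 is Cyp2e1, which left 100, and 35 of these reached the limit. The 8 libraries held 16855 genes with a mean of at least 1 TPM in all.

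The libraries came from colon of BALB/cA mice that were DCIR-/- or wild type, with 1 library in each group. DCIR is an inhibitory lectin receptor of myeloid cells encoded by Clec4a2. Each genotype was sampled at steady state, on day 12 of treatment with DSS (dextran sulfate sodium, an agent toxic to colon epithelium), and on day 112 of a protocol of azoxymethane (a carcinogen) and DSS, when non-polyp colon and polyps were taken apart. The labels give no age, and they name neither the exons that the knockout lacks nor the number of animals behind a library. The series' design states 1 biological replicate per sample. Differences between 2 libraries therefore have no replicate check. The p-values come from 1 limma fit of stage and genotype over the 8 libraries, without interaction. Its residual spread mixes genotype differences that vary by stage with variation between libraries, and the SE and p-values cannot separate them. Whether the variation between libraries is technical or between animals is not known.

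Depth differed little, with aligned bases between 2.70 and 3.35 gigabases per library as implied by the deposited coverage and FPKM. Clec4a2 was listed at 0 in the DSS, non-polyp and polyp knockout libraries and at 0.659 TPM in the steady-state knockout library, against 2.74 to 4.33 TPM in the wild-type libraries, so that the label of the steady-state knockout library is in doubt. The knockout non-polyp library stood apart from wild-type non-polyp colon and near the polyps. Over the 35 P450 genes its mean absolute log2 difference was 0.24 to knockout polyp and 1.55 to wild-type non-polyp, against 0.30 between the steady-state libraries. The day split is given with and without those 2 libraries. So are the counts of called genes and the genes called in the stage contrasts of non-polyp colon or polyps. For the genotype and DSS contrasts the medians are given both ways. The day 112 libraries also differed from the others in sex-linked and gland transcripts. The female transcript Xist was at 63.0 to 104 TPM in the day 112 libraries, against at most 0.114 TPM at steady state and after DSS. The summed level of 8 prostate and seminal vesicle genes was 1.36 to 14.5 TPM at day 112, against 3563 to 5776 TPM at steady state and after DSS. Not all 8 were high in each earlier library. Svs4 and Svs5 were at 541 and 662 TPM in knockout after DSS, and at 1.08 and 0.540 TPM in wild type. Any difference between day 112 and steady state can therefore not be told apart from the sex-linked and gland differences.

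The 35 genes comprised 19 of the xenobiotic families, 8 of the fatty acid family, 3 sterol and bile acid enzymes, 2 steroid hormone enzymes, the cholesterol synthesis enzyme Cyp51, the retinoic acid enzyme Cyp26b1, and Cyp20a1, which has no settled role. Roles were assigned by family number, with CYP2 and CYP3 as xenobiotic and CYP4 as fatty acid. The xenobiotic class thus includes genes such as Cyp2c55, which hydroxylates arachidonic acid, and its sums do not measure drug metabolism. No vitamin D enzyme reached the limit. Just inside it were Cyp2c40 and Cyp7b1 with means of 1.73 and 1.28 TPM, and just outside it were Cyp2u1 and Cyp4f39 with means of 0.991 and 0.879 TPM. Of the 65 genes below the limit, 22 were listed at 0 in every library and 3 reached 1 TPM in at least 1 library. A gene such as Cyp21a1 passed the limit only through the libraries where it was high, so counts and medians over the 35 genes are descriptions and support nothing by themselves. In bulk tissue, fewer cells of a type and less RNA per cell cannot be told apart.

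Many of the genes lie side by side. On chromosome 15 a run of 423.8 kb held Cyp2d22, Cyp2d10, Cyp2d9, Cyp2d12, Cyp2d34 and Cyp2d26, from 82370527 to 82794294 in GRCm38. On chromosome 19 a run of 879.8 kb held Cyp2c55, Cyp2c65, Cyp2c67, Cyp2c68, Cyp2c40 and Cyp2c69. Close copies can share reads. The longest protein-coding transcripts of Cyp2d9 and Cyp2d10 matched at 91.8% of aligned bases, those of Cyp2d9 and Cyp2d12 at 91.4%, and those of Cyp2c40, Cyp2c67, Cyp2c68 and Cyp2c69 at 96.4% to 98.0%. How the authors' counting divided such reads is not given, so levels within these copies are uncertain one by one.

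Promoter sequence from RefSeq (GRCm38.p6, 250 bases before to 50 bases after the start) was matched by symbol for 28 of the 35 genes. Shown are those of the neighbours Cyp2d9 and Cyp2d10, which passed the stage test below, and of Cyp2c55, the gene with the highest mean level. That of Cyp2b10, which was high only in both polyp libraries and knockout non-polyp, is shown as well. The sequences read 5′ to 3′, and capitals mark TATAA and CAAAGNNCA on either strand.
Cyp2d9, chr15:82452127-82452426, plus strand: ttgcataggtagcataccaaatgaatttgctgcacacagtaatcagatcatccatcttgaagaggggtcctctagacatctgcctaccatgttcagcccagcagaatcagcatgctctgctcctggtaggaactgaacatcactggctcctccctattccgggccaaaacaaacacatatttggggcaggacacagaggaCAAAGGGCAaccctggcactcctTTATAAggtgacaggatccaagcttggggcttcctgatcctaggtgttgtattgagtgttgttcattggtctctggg
Cyp2d10, chr15:82407145-82407444, minus strand: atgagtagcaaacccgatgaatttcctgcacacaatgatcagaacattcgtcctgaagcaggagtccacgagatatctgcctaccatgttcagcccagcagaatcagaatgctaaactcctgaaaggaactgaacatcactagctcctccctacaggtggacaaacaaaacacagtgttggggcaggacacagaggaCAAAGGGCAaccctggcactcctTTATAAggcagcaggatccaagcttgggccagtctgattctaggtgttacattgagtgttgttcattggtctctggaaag
Cyp2c55, chr19:39006769-39007068, plus strand: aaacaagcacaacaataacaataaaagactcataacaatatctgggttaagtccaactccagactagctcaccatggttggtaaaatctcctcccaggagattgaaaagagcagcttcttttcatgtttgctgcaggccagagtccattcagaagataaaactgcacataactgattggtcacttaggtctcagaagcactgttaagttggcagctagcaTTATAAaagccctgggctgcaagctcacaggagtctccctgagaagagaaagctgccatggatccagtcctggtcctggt
Cyp2b10, chr7:25897408-25897707, plus strand: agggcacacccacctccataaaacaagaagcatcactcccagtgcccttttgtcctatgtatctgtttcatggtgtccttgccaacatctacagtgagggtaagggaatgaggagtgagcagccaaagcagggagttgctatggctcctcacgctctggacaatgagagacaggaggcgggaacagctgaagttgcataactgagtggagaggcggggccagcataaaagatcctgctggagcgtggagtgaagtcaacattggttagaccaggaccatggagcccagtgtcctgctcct
The RefSeq start of Cyp2d9 used here, at 82452377, lies inside the deposited gene, which begins at 82433437.

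The Cyp2d9 and Cyp2d10 windows matched at 85.6% of 291 aligned bases, with a longest shared run of 51 bases. Both hold TATAA and, upstream of it, CAAAGNNCA. Reading both strands, TATAA was in 13 of the 28 genes and 14 of their 33 promoters, beside 24.9% of all 32851 promoters. CAAAGNNCA was in 10 of the 28 genes and 10 of their 33 promoters, beside 6.36% of all promoters. Those 10 genes were Cyp2c40, Cyp2c65, Cyp2c67, Cyp2c68, Cyp2c69, Cyp2d9, Cyp2d10, Cyp2d26, Cyp4b1 and Cyp51, of which 8 lie in the Cyp2c and Cyp2d runs and share ancestry. AGGTCA was in 2 of the 33 promoters against 16.3% of all promoters, and GCGTG in 9 against 32.4%. One form of CAAAGNNCA, with GT as the free letters, contains AGGTCA, and the other motifs do not contain each other. A match is a run of letters, not a binding site. The Cyp2b10 window held neither capitalised motif.

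Summed over the 35 genes, P450 transcripts made up 1334 TPM in knockout and 1510 TPM in wild type at steady state. The sums were 1308 TPM in knockout and 931 TPM in wild type after DSS, and 444 TPM in knockout and 1247 TPM in wild type in non-polyp colon. In polyps they were 428 TPM in knockout and 465 TPM in wild type. The 3 lowest sums were thus those of both polyp libraries and the knockout non-polyp library. Absorptive colonocyte markers moved with them. The summed level of 11 such genes was 1045 TPM in knockout non-polyp colon, 1048 TPM in knockout polyp and 1430 TPM in wild-type polyp, against 3962 to 7173 TPM in the other libraries. The part of colonocyte content in the P450 levels was not tested.

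**Figure D1:**
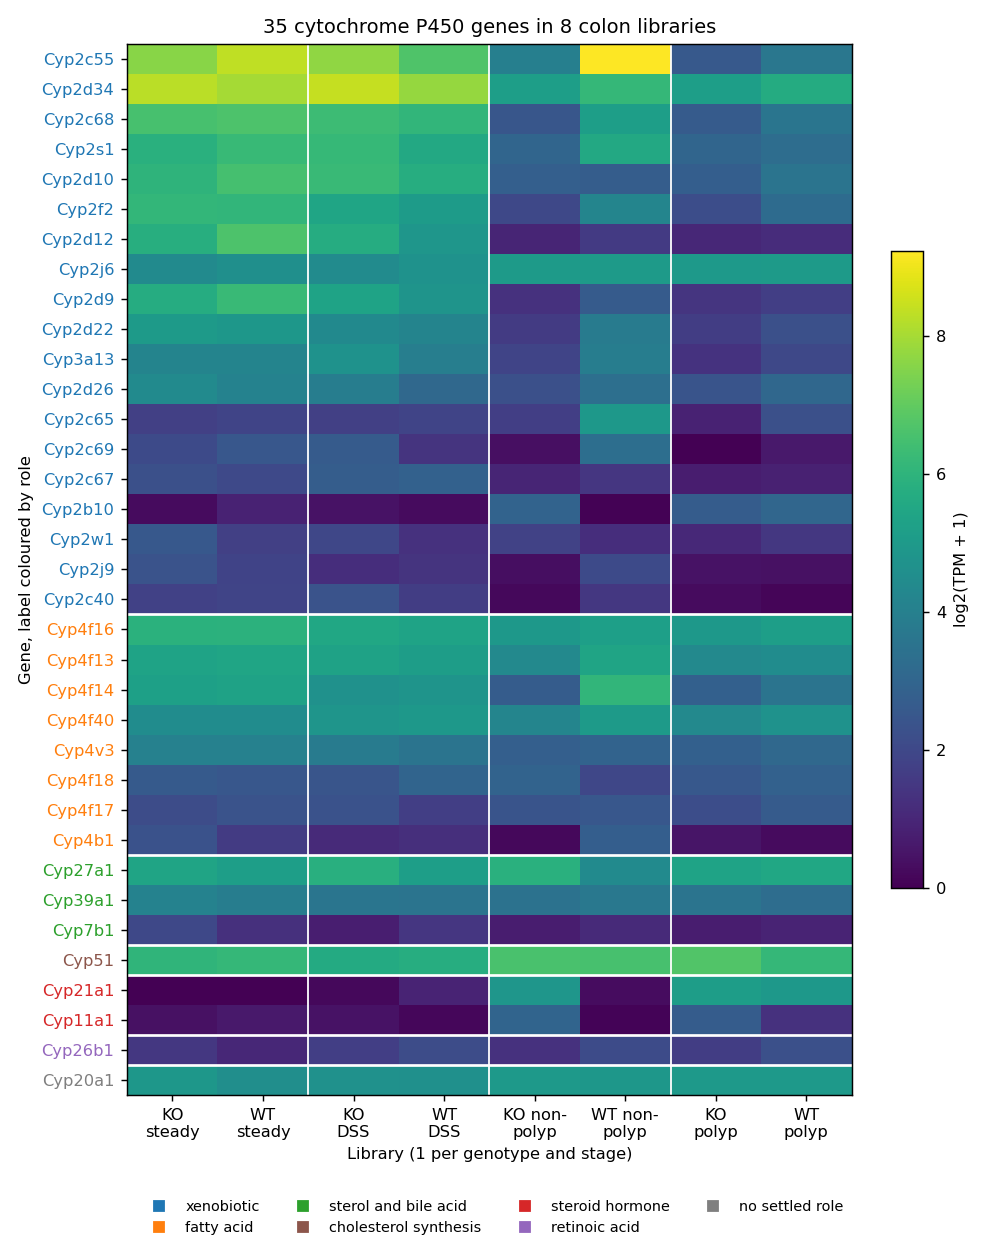
Level of each of the 35 P450 genes (rows, grouped by role) in each of the 8 libraries (columns, knockout left of wild type within a stage), coloured by log2(TPM + 1). Xenobiotic genes such as Cyp2c55 and Cyp2c68 are dim in knockout non-polyp and in both polyp libraries, whereas Cyp21a1 is bright there and near 0 elsewhere.

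Xenobiotic genes made up most of the total in the steady-state, DSS and wild-type non-polyp libraries, and less than the other roles together in knockout non-polyp and both polyp libraries. The 19 genes summed to 994 TPM in knockout and 1178 TPM in wild type at steady state, 1008 TPM in knockout and 652 TPM in wild type after DSS, and 126 TPM in knockout and 895 TPM in wild type in non-polyp colon. In polyps they summed to 111 TPM in knockout and 164 TPM in wild type. The 8 fatty acid genes spanned a smaller range, from 88.5 TPM in knockout non-polyp colon to 194 TPM in wild-type non-polyp colon. Sterol and bile acid genes lay between 33.2 and 67.2 TPM, and the 2 steroid hormone genes between 0.287 and 39.6 TPM.

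Which stages differed was asked first. Cyp2d12, Cyp2d9 and Cyp2d10, neighbouring xenobiotic genes of which Cyp2d9 is known in mouse liver as a male-biased testosterone hydroxylase, fell in day 112 tissue relative to steady state. They fell both in non-polyp colon and in polyps, and no P450 gene rose past the threshold in either comparison. Cyp2d12 had 54.3 TPM in knockout and 99.4 TPM in wild type at steady state, 50.9 TPM in knockout and 28.1 TPM in wild type after DSS, 0.916 TPM in knockout and 1.96 TPM in wild type in non-polyp colon, and 1.02 TPM in knockout and 1.23 TPM in wild type in polyps. All 4 day 112 values lay more than 10 TPM below the lowest of the others. Cyp2d9 had 51.8 and 75.0 TPM in steady-state knockout and wild type, 39.5 and 26.2 TPM after DSS, 1.48 and 5.26 TPM in non-polyp colon and 1.67 and 2.29 TPM in polyps, in the same order of genotypes. Cyp2d10 had 62.6 and 89.8 TPM at steady state, 75.6 and 52.3 TPM after DSS, 5.92 and 5.56 TPM in non-polyp colon and 5.81 and 10.7 TPM in polyps, again knockout before wild type. The day 112 and earlier ranges of all 3 genes were apart in both genotypes.

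On the scale of log2(TPM + 1), which understates the change of low genes, polyp minus steady state was −5.13 ± 0.44 (SE) for Cyp2d12, −4.42 ± 0.45 for Cyp2d9 and −3.09 ± 0.35 for Cyp2d10. Their adjusted p were 0.0170, 0.0313 and 0.0397 (limma, Benjamini-Hochberg over 16855 genes, 8 libraries). Non-polyp minus steady state was −4.97 ± 0.44, −4.01 ± 0.45 and −3.50 ± 0.35 in the same gene order, with adjusted p of 0.0204, 0.0438 and 0.0312 from the same fit. These were 3 of 35 genes called in each comparison. Over all genes, 0.819% were called in polyp minus steady state, 0.629% lower, and 0.326% in non-polyp minus steady state, 0.255% lower. Both comparisons share the steady-state libraries and 1 fit, so they are not 2 pieces of evidence. Prostate and seminal vesicle transcripts and the sex-linked transcript named above split by day as all 3 genes do. Among the steady-state and DSS libraries, all 3 genes were highest in steady-state wild type, where the gland sum was lowest at 3563 TPM. The part of these transcripts was not tested. Each gene also overlaps small genes on the same strand in the annotation. One of them, Gm27924 beside Cyp2d12, was at 4.48 to 18.5 TPM at steady state and after DSS and listed at 0 in the day 112 libraries.

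**Figure D2:**
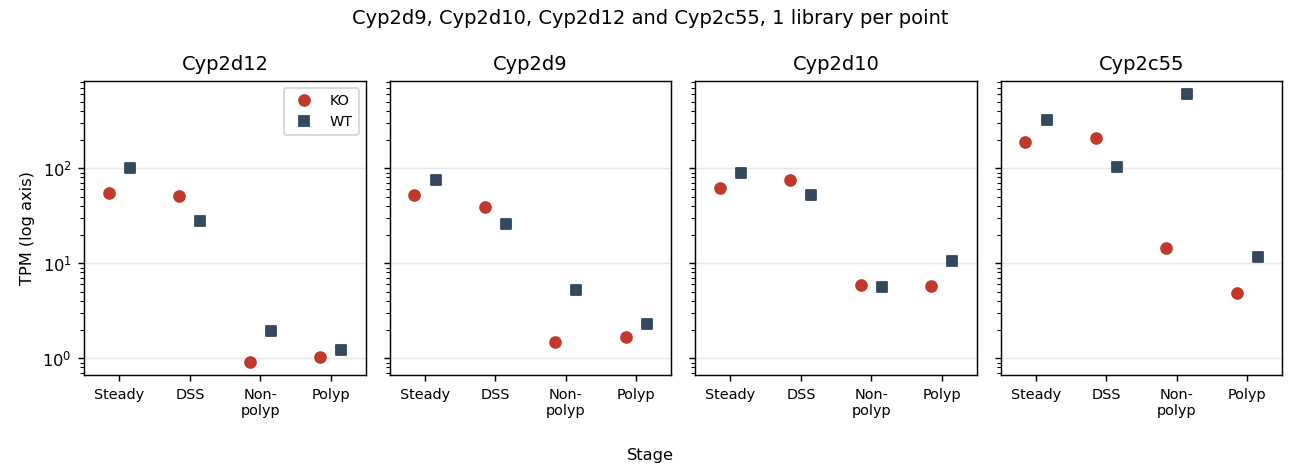
Level in TPM on a shared log axis of Cyp2d12, Cyp2d9, Cyp2d10 and Cyp2c55 in the 8 libraries, by stage, with knockout circles left of wild-type squares. The 3 Cyp2d genes are low in all 4 day 112 libraries, whereas Cyp2c55 has its highest value, 598 TPM, in wild-type non-polyp colon.

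The stage calls rest on few libraries. Without the knockout non-polyp library, polyp minus steady state called 22 of the 35 genes beside 25.7% of all genes, and without the wild-type non-polyp library 22 beside 25.6%. Without either steady-state library it called 0 beside 0.0534%, and without either polyp library 0 beside 0.0%. Without both the knockout steady-state and knockout non-polyp libraries, a choice made after seeing the data, it called 15 beside 13.8%. Non-polyp minus steady state called 18 beside 13.3% without the wild-type non-polyp library. It called 0 beside 0.0534% without the knockout and 0.0593% without the wild-type steady-state library, and 0 beside 0.089% without either polyp library. The polyp minus steady state call of Cyp2d10 was also lost without the knockout and without the wild-type DSS library, with adjusted p of 0.0516 and 0.0504 (limma). The calls over all genes thus moved in step with those of the P450 genes. Without both the knockout steady-state and knockout non-polyp libraries, polyp minus steady state was −5.73 ± 0.45 for Cyp2d12, −4.75 ± 0.42 for Cyp2d9 and −3.29 ± 0.44 for Cyp2d10. Non-polyp minus steady state was then −5.08 ± 0.48, −3.60 ± 0.45 and −3.79 ± 0.47 in the same gene order, and these 3 genes were called beside 1.33% of all genes.

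More genes lay below the threshold of the unadjusted test. At an unadjusted p under 0.05, limma gave 21 of the 35 genes in polyp minus steady state, or 60%, against 30.5% of all genes. The median difference was −1.07 over the P450 genes and −0.08 over all genes. In non-polyp minus steady state 13 of 35 reached that level, or 37.1%, against 16.5% of all genes, and the medians were −0.73 and −0.10. Without both the knockout steady-state and knockout non-polyp libraries these counts were 23 of 35 in polyp minus steady state, against 29.6% of all genes, and 9 of 35 in non-polyp minus steady state, against 13.1%. Rescaling by median-of-ratios moved the all-gene medians of the genotype, DSS, non-polyp and polyp contrasts to between −0.00 and 0.03, with P450 medians of −0.27, −0.17, −0.63 and −0.96. In single pairs of libraries, 24 of 35 genes differed at least 2-fold (on TPM + 1) between knockout polyp and knockout steady state, beside 26.0% of all genes, and 19 of 35 between wild-type polyp and wild-type steady state, beside 23.7%. Knockout non-polyp differed from knockout steady state in 23 genes beside 25.1%, and wild-type non-polyp from wild-type steady state in 11 beside 12.4%.

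**Figure D3:**
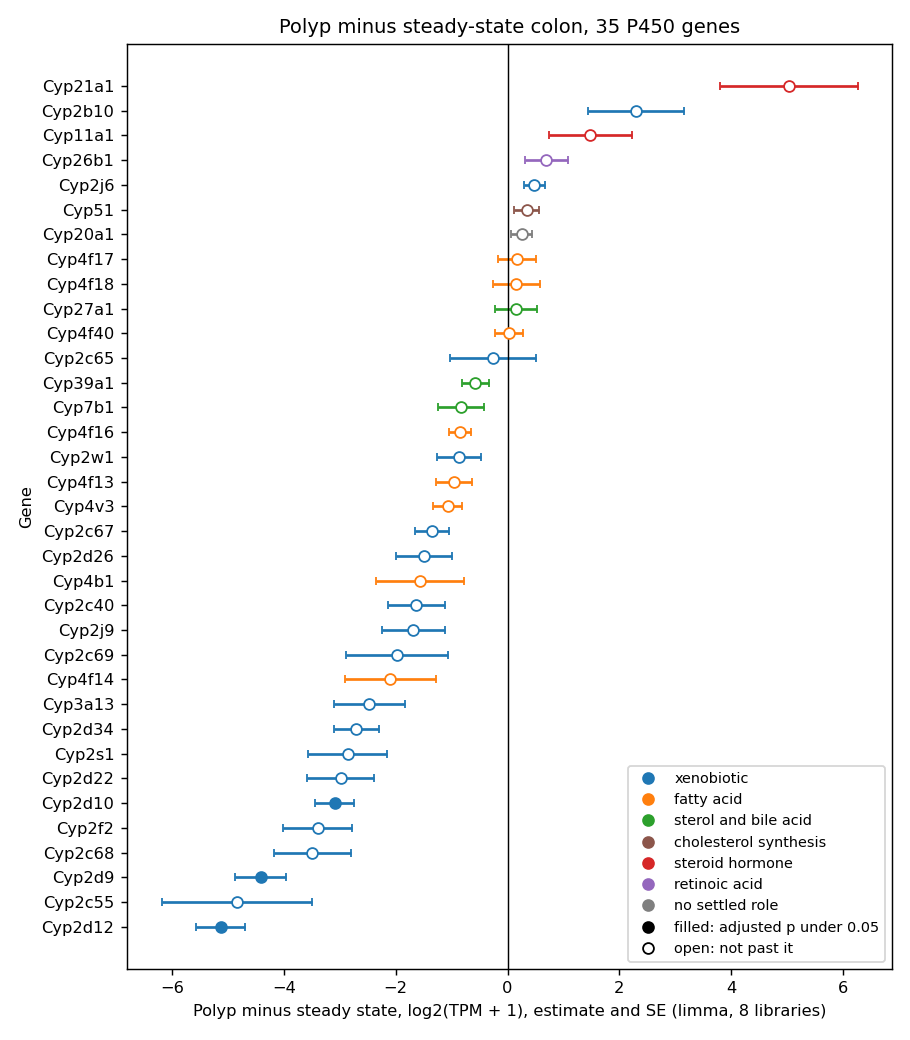
Polyp minus steady state on the log2(TPM + 1) scale for the 35 P450 genes, as the limma estimate over 8 libraries with its SE. Filled points passed an adjusted p of 0.05 (Cyp2d12, Cyp2d9 and Cyp2d10), and open points did not, from Cyp2c55 at −4.84 to Cyp21a1 at 5.03.

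Split by day rather than by stage, 12 P450 genes had all 4 day 112 values below all 4 earlier ones, beside 12.2% of all genes, and 1 gene had them all above, beside 7.44%. The 12 were Cyp2d34, Cyp2d10, Cyp2d12, Cyp2d9, Cyp2d22, Cyp2c68, Cyp2c67, Cyp2c40, Cyp2f2, Cyp3a13, Cyp4f16 and Cyp4v3. Cyp2d34, second in mean level, was at 309.8 TPM in knockout and 249 TPM in wild type at steady state and at 339.9 TPM in knockout and 216 TPM in wild type after DSS. At day 112 it was at 35.3 TPM in knockout and 69.9 TPM in wild type in non-polyp colon, and at 35.01 TPM in knockout and 49.8 TPM in wild type in polyps. Its polyp minus steady state difference of −2.70 ± 0.40 had an adjusted p of 0.0517 (limma). The gene that was above was Cyp2j6, at 30.4 to 31.6 TPM at day 112 against 20.5 to 25.3 TPM earlier. Without the knockout steady-state and knockout non-polyp libraries 12 genes were below, beside 14.8% of all genes, and 2 above, beside 10.7%.

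Cyp2c55, which hydroxylates arachidonic acid in mouse, showed the widest range. It had 189 TPM in knockout and 321 TPM in wild type at steady state, 206 TPM in knockout and 103 TPM in wild type after DSS, 14.6 TPM in knockout and 598 TPM in wild type in non-polyp colon, and 4.90 TPM in knockout and 11.7 TPM in wild type in polyps. The wild-type non-polyp library was highest and both polyp libraries lowest, with knockout non-polyp next to them. Cyp2c55 made up 48.0% of the summed P450 level in wild-type non-polyp colon and 1.14% in knockout polyp. Its limma contrasts did not pass, at −4.84 ± 1.34 for polyp minus steady state (adjusted p = 0.0934).

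Its neighbour Cyp2c65, 18.3 kb away, was at 2.39 and 2.76 TPM in steady-state knockout and wild type, 2.38 and 2.67 TPM after DSS, 2.32 and 29.6 TPM in non-polyp colon, and 0.863 and 3.77 TPM in polyps, knockout before wild type. Only the wild-type non-polyp library was high. Pancreatic transcripts were highest in that library as well, with a summed level of 45.0 TPM over 6 acinar genes, against at most 0.526 TPM in each other library. The enterocyte fatty acid binding gene Fabp2 was at 747 TPM there, against 3.45 to 21.1 TPM in each other library. Their part in the Cyp2c65 and Cyp2c55 levels was not tested.

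Cyp2c68 stood at 91.6 TPM in knockout and 100.4 TPM in wild type at steady state, and at 79.8 TPM in knockout and 66.9 TPM in wild type after DSS. In non-polyp colon it stood at 4.47 TPM in knockout and 35.1 TPM in wild type, and in polyps at 5.25 TPM in knockout and 10.9 TPM in wild type. Cyp2s1, an epithelial P450, stood at 56.3 and 73.0 TPM at steady state, 71.9 and 46.6 TPM after DSS, 7.01 and 46.9 TPM in non-polyp colon, and 7.09 and 8.92 TPM in polyps, knockout before wild type. Cyp2f2, known for activating naphthalene in mouse lung, stood at 68.6 and 65.8 TPM at steady state, 42.1 and 32.7 TPM after DSS, 3.01 and 17.6 TPM in non-polyp colon, and 3.48 and 8.41 TPM in polyps, in that order of genotypes. All 3 had their lowest value in knockout non-polyp colon, within 1 TPM of knockout polyp.

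Cyp2b10, the classic target gene of the receptor CAR in mouse liver, ran the other way. It had 0.208 TPM in knockout and 0.857 TPM in wild type at steady state, 0.368 TPM in knockout and 0.206 TPM in wild type after DSS, 6.63 TPM in knockout and 0.0471 TPM in wild type in non-polyp colon, and 5.51 TPM in knockout and 7.34 TPM in wild type in polyps. Both polyp libraries and knockout non-polyp were high, and the other libraries were below 1 TPM. Nr1i3, which encodes CAR, was at 5.46 to 6.72 TPM in those 3 libraries and 7.70 to 12.4 TPM in the others. Cyp2b10 lies 80.7 kb from Cyp2s1, whose levels were low in the same 3 libraries. Polyp minus steady state for Cyp2b10 was 2.30 ± 0.85, with an adjusted p of 0.141 (limma).

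Other xenobiotic genes had means below 15 TPM. Cyp2d22 ranged between 2.05 and 31.5 TPM, Cyp3a13 between 1.56 and 25.2 TPM, and Cyp2d26 between 3.80 and 20.3 TPM, each highest at steady state or after DSS. Cyp2c67, Cyp2c69, Cyp2c40, Cyp2j9 and Cyp2w1 had means between 1.73 and 3.09 TPM.

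Among the 8 fatty acid genes, Cyp4f14, a leukotriene hydroxylase in mouse, had the widest range in TPM. It had 36.6 TPM in knockout and 39.1 TPM in wild type at steady state, 24.1 TPM in knockout and 26.5 TPM in wild type after DSS, 5.42 TPM in knockout and 66.1 TPM in wild type in non-polyp colon, and 6.09 TPM in knockout and 10.6 TPM in wild type in polyps. Like Cyp2c55, it was highest in wild-type non-polyp colon and low in the same 3 libraries. Cyp4f16 and Cyp4f13 lay closer together. Cyp4f16 was at 29.2 to 36.2 TPM at day 112 against 39.5 to 59.5 TPM earlier, and Cyp4f13 was at 19.3 to 21.6 TPM in both polyp libraries and knockout non-polyp, against 34.4 to 41.6 TPM in the other libraries. Cyp4f13 lies 7.3 kb from Cyp4f14. Cyp4b1, low in level, ranged between 0.136 and 5.68 TPM and Cyp4v3 between 5.88 and 15.6 TPM. Cyp4f40 ranged between 17.4 and 31.4 TPM, Cyp4f18, a leukotriene hydroxylase of mouse neutrophils, between 2.89 and 6.93 TPM, and Cyp4f17 between 2.30 and 5.21 TPM. None of the 8 passed the limma threshold in any of the 5 contrasts.

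Sterol enzymes followed other orders of the libraries. Cyp51, the lanosterol demethylase of cholesterol synthesis, was at 64.7 TPM in knockout and 69.6 TPM in wild type at steady state, and at 48.6 TPM in knockout and 52.1 TPM in wild type after DSS. At day 112 it was at 95.3 TPM in knockout and 92.1 TPM in wild type in non-polyp colon, and at 104.7 TPM in knockout and 69.5 TPM in wild type in polyps. Both DSS values were the lowest of the 8. Its share of the summed P450 level was 21.4% in knockout non-polyp and 24.5% in knockout polyp, against 3.72% to 14.9% in the other libraries. Cyp27a1, the mitochondrial sterol hydroxylase of bile acid synthesis, was at 41.0 and 34.6 TPM at steady state, 55.3 and 35.5 TPM after DSS, 56.4 and 20.1 TPM in non-polyp colon, and 39.9 and 44.3 TPM in polyps, knockout before wild type. Its genotypes differed most in non-polyp colon, and in polyps the order was reversed. Cyp39a1 and Cyp7b1, hydroxylases of oxysterols, were at 8.89 to 16.0 TPM and 0.660 to 3.03 TPM.

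Steroid hormone enzymes were above 1 TPM in 3 libraries. Cyp21a1, the steroid hydroxylase needed for glucocorticoids and mineralocorticoids, was listed at 0 in knockout and wild type at steady state. It had 0.156 TPM in knockout and 0.877 TPM in wild type after DSS, 27.7 TPM in knockout and 0.226 TPM in wild type in non-polyp colon, and 34.1 TPM in knockout and 29.5 TPM in wild type in polyps. Both polyps and knockout non-polyp were above 27 TPM, and every other library was below 1 TPM. Cyp11a1, which cleaves the side chain of cholesterol at the start of steroid synthesis, had 0.337 and 0.533 TPM at steady state, 0.376 and 0.116 TPM after DSS, 6.83 and 0.0611 TPM in non-polyp colon, and 5.48 and 1.46 TPM in polyps, knockout before wild type. Its polyp values were unequal, with wild type well under knockout.

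For Cyp21a1, polyp minus steady state was 5.03 ± 1.23 and polyp minus non-polyp 2.46 ± 1.23, with adjusted p of 0.0801 and 0.858 (limma). Without the knockout non-polyp library, polyp minus non-polyp was 4.82 ± 0.42 for Cyp21a1, 2.95 ± 0.40 for Cyp2b10 and 1.66 ± 0.55 for Cyp11a1. That fit drops the non-polyp library in which these genes were high, and each gene reached the mean limit only through its high libraries, so these values are a description. The deposited Cyp21a1 row overlaps exons of Tnxa on the opposite strand, which was at most 0.107 TPM, and the strand setting of the counting is not given. Cyp11a1 overlaps Gm17322 on the same strand, which had 10.2 TPM in knockout and 0.318 TPM in wild-type non-polyp colon, 12.0 TPM in knockout and 9.21 TPM in wild-type polyp, and 1.01 to 6.47 TPM in the other libraries. How reads were divided between them is not given.

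**Figure D4:**
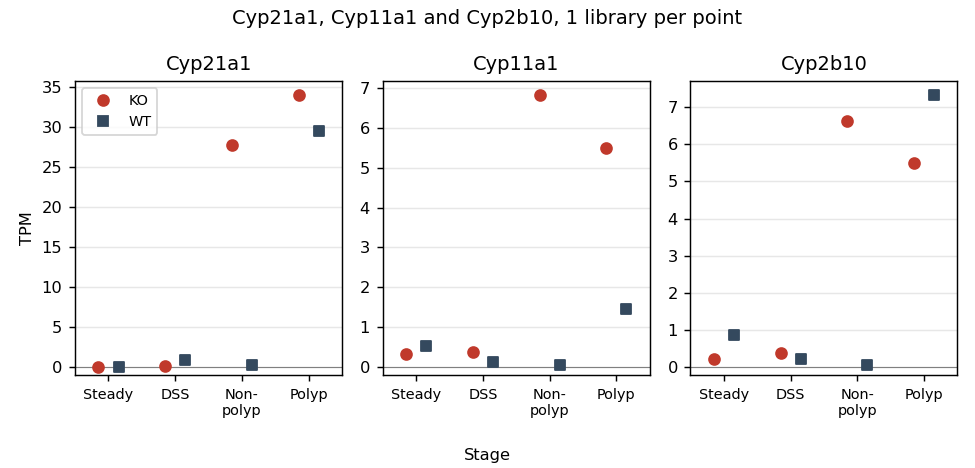
Level in TPM (linear axes, each gene on its own scale) of Cyp21a1, Cyp11a1 and Cyp2b10 in the 8 libraries by stage, with knockout circles left of wild-type squares. High values fall in both polyp libraries and knockout non-polyp, and Cyp11a1 reaches 5.48 TPM in knockout polyp against 1.46 TPM in wild-type polyp.

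Other genes of steroid synthesis differed widely in level. Cyp11b1 and Cyp11b2, the last enzymes of corticosterone and aldosterone synthesis, were listed at 0 in all 8 libraries, and Cyp17a1 was at most 0.102 TPM. Nr5a1, the defining regulator of adrenal and gonadal steroid cells, was at most 0.0205 TPM, and Star, which carries cholesterol into mitochondria, lay between 0.983 and 2.25 TPM. Hsd3b1 was at most 0.212 TPM, whereas the related Hsd3b2 reached 28.8 TPM and Hsd3b3 49.7 TPM, both in wild-type non-polyp colon. Hsd11b2, which inactivates corticosterone, was at 55.1 to 592 TPM, and Tspo, a mitochondrial membrane protein, at 232 to 470.3 TPM. Nr5a2, the related regulator of intestinal epithelium, was at 0.692 TPM in knockout non-polyp, 1.12 TPM in knockout polyp and 3.08 TPM in wild-type polyp, against 12.1 to 24.9 TPM elsewhere. Mast cell transcripts other than Kit moved with Cyp11a1. Kit was at 11.6 to 18.1 TPM in both polyps and knockout non-polyp and at 11.6 to 32.5 TPM elsewhere. The summed level of 9 mast cell genes was 3641 TPM in knockout non-polyp, 2971 TPM in knockout polyp and 606 TPM in wild-type polyp, against 33.4 to 99.7 TPM in the other libraries, and most of it was Mcpt1 and Mcpt2. Their part was not tested.

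Cyp26b1, which breaks down retinoic acid, had 1.83 TPM in knockout and 1.05 TPM in wild type at steady state, 2.26 TPM in knockout and 3.43 TPM in wild type after DSS, 1.47 TPM in knockout and 3.28 TPM in wild type in non-polyp colon, and 2.21 TPM in knockout and 3.73 TPM in wild type in polyps. Knockout was lower at the 3 later stages and higher at steady state. Cyp20a1 was the flattest of the 35, between 22.8 and 31.2 TPM.

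How genotype bears on these genes was asked with the fit over all stages and with single pairs. Knockout and wild type did not differ past the threshold in any P450 gene. The limma fit called 0 of 35 P450 genes, beside 0.0% of all genes (0 of 16855), and the smallest adjusted p of a P450 gene was 0.705. At an unadjusted p under 0.05 it gave 0 of 35 genes, against 4.37% of all genes. Clec4a2, the gene knocked out, was among the genes tested and was not called either. With 3 residual degrees of freedom, the absence of calls therefore does not show that the P450 genes are alike in both genotypes. Differences were negative in 26 of 35 genes with a median of −0.17, whereas 64.5% of all genes were positive and their median was 0.10. Without either of the non-polyp libraries, which takes that pair out of the contrast, the P450 median was −0.02 with 14 genes positive. Without the knockout steady-state and knockout non-polyp libraries, the median was −0.01 with 17 genes positive. The highest were Cyp11a1 at 1.10 ± 0.53 and Cyp21a1 at 1.01 ± 0.87, and the lowest Cyp2c55 at −1.53 ± 0.95 and Cyp2c65 at −1.21 ± 0.55. Without either non-polyp library the Cyp21a1 difference was −0.17.

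Pairs of libraries showed where the differences lay. At steady state 0 of 35 P450 genes differed at least 2-fold between genotypes, beside 4.77% of all genes. After DSS 1 did, Cyp2c69, at 5.30 TPM in knockout and 1.63 TPM in wild type, beside 4.66%. In non-polyp colon 19 did, beside 24.6%, of which 4 were higher in knockout, beside 14.7%, and 15 lower, beside 9.94%. The 4 were Cyp21a1 (log2 difference 4.55), Cyp11a1 (2.88), Cyp2b10 (2.87) and Cyp27a1 (1.44), and the lowest were Cyp2c55 (−5.26), Cyp4f14 (−3.38) and Cyp2c65 (−3.20). In polyps 4 did, beside 5.92%. These were Cyp11a1, higher in knockout (1.40, beside 3.67% of all genes), and Cyp2c65 (−1.36), Cyp2c55 (−1.10) and Cyp2f2 (−1.07), lower in knockout, beside 2.24%. In 31 of 35 genes the knockout non-polyp level was nearer to knockout polyp than to wild-type non-polyp, beside 79.8% of all genes, and in 30 it was nearer to wild-type polyp, beside 72% of all genes.

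**Figure D5:**
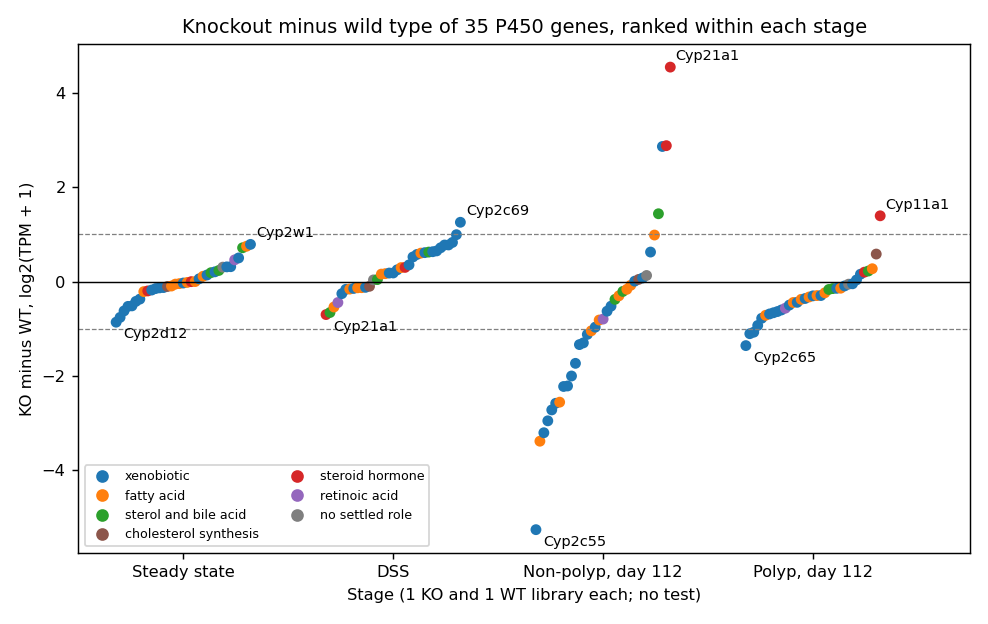
Knockout minus wild type on the log2(TPM + 1) scale for the 35 P450 genes (points, coloured by role), ranked within each of the 4 stages, with 1 library per genotype and dashed lines at a 2-fold difference. The spread is wide in non-polyp colon, from Cyp2c55 at −5.26 to Cyp21a1 at 4.55, and no gene passes the lines at steady state.

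DSS against steady state gave no call. The limma fit called 0 of 35 P450 genes beside 0.0% of all genes, and at an unadjusted p under 0.05 it gave 0 of 35 and 904 of 16855. The unadjusted count depends on the libraries fitted. With only the 4 steady-state and DSS libraries limma gave 7 of 35 at that level, and it called 0 of 35 and 0 of all genes. The share of all genes at the unadjusted level is not given for that fit. The median was −0.25 over the P450 genes and −0.12 over all genes. Without the knockout steady-state and knockout non-polyp libraries these medians were −0.36 and −0.09. Highest were Cyp26b1 at 0.66 ± 0.39 and Cyp2c67 at 0.64 ± 0.31, and lowest Cyp2d12 at −0.94 ± 0.44 and Cyp2d9 at −0.93 ± 0.45. In pairs of libraries, 3 genes differed at least 2-fold in knockout, beside 9.18%, and 5 in wild type, beside 6.46%.

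Polyps against non-polyp colon gave no call over all libraries. The limma fit called 0 of 35 P450 genes beside 0.0% of all genes, and at an unadjusted p under 0.05 it gave 1 of 35 (Cyp2c55, −3.48 ± 1.34) and 496 of 16855. In single pairs, knockout polyp and knockout non-polyp were at least 2-fold apart in 1 gene (Cyp2c55, beside 2.87% of all genes), and wild-type polyp and wild-type non-polyp in 15 (beside 18.9%). The difference between genotypes was not tested. Without the knockout non-polyp library the fit called 11 of 35 genes beside 9.07%, 2 higher in polyps (Cyp21a1 and Cyp2b10) and 9 lower (Cyp2c55, Cyp2c65, Cyp2c68, Cyp2c69, Cyp2d22, Cyp2s1, Cyp3a13, Cyp4b1 and Cyp4f14). Without the knockout steady-state library as well it called 11 beside 9.85%. In these fits the non-polyp side rests on the 1 wild-type library, which is assumed to vary like the other groups. Cyp21a1 and Cyp2b10 reached the mean limit only through their high libraries, and the fits drop the non-polyp library where they were high. Their higher level in polyps is therefore a description.

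Partner genes of the P450 enzymes showed few calls. Of 9 genes listed as redox partners, not all of which pass electrons to P450 enzymes, 0 passed the limma threshold in any contrast. Their summed level lay between 685 and 795 TPM in all libraries, but single genes differed more. Hmox1 was at 48.5 to 95.3 TPM in both polyps and knockout non-polyp, against 10.3 to 21.0 TPM elsewhere. In polyp minus steady state 3 of the 9 were positive and 6 negative. Por was at 69.4 to 124 TPM. Of 10 genes of the AhR pathway 8 were measured and 0 were called, with a median of −0.56 in polyp minus steady state. The AhR target genes Cyp1a1 and Cyp1b1 were below the limit, at most 0.129 and 0.752 TPM. Of 12 xenobiotic and metabolic nuclear receptors 0 were called, and 11 had negative polyp minus steady state differences, with a median of −1.17. Vdr, the vitamin D receptor, was at 11.9 to 18.6 TPM in both polyps and knockout non-polyp, against 74.3 to 191 TPM in the others. Its polyp minus steady state difference was −3.57 ± 0.67 (adjusted p = 0.0609, limma). Nr1i2, which encodes the pregnane receptor, was at 20.7 to 26.4 TPM in those libraries and 36.6 to 73.4 TPM in the others.

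Of 20 cholesterol synthesis genes 0 were called. Their genotype differences were positive in 18 of 20 with a median of 0.22, against 0.10 over all genes, and their polyp minus steady state median was −0.05. Of 16 steroid enzymes and regulators 14 were measured and 0 called, with a polyp minus steady state median of −1.04. Of 16 retinoic acid genes 15 were measured and 1 was called. Dhrs9, a retinol dehydrogenase, rose in polyps relative to steady state by 3.80 ± 0.49 (adjusted p = 0.0473, limma). Its adjusted p was 0.223 to 0.434 without any 1 of the steady-state or polyp libraries, 0.0672 and 0.0648 without the knockout and the wild-type DSS library, and 0.00233 without both doubted knockout libraries. It had 1.21 TPM in knockout and 0.683 TPM in wild type at steady state, 11.04 TPM in knockout and 15.5 TPM in wild type after DSS, 39.9 TPM in knockout and 11.7 TPM in wild type in non-polyp colon, and 30.4 TPM in knockout and 21.9 TPM in wild type in polyps. The steady-state libraries were lowest and apart from all others. Of 10 epoxide and eicosanoid partners 0 were called, with a polyp minus steady state median of 0.11. Among them 6 were positive and 4 negative in that contrast. Ptgis, the prostacyclin synthase, was at 0.751 to 2.58 TPM in both polyps and knockout non-polyp, against 8.63 to 15.5 TPM elsewhere. Alox15 and Alox12 were high in those libraries. Alox15 was at 130 to 176 TPM there against 1.28 to 7.93 TPM elsewhere, and Alox12 at 34.6 to 69.8 TPM against 0.541 to 3.26 TPM.

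Markers of other tissues varied among the libraries beside these results. The summed smooth muscle level over 8 genes was 469 to 756 TPM in both polyps and knockout non-polyp, against 5822 to 10514 TPM in the others. Over 9 adipocyte genes it was 1040 TPM in knockout and 69.4 TPM in wild type at steady state. The 6 hepatocyte genes summed to 9.22 to 87.0 TPM. Of these Ttr was at 8.17 to 81.5 TPM, Alb at 0.615 to 16.0 TPM, Serpina1a at 0.29 to 1.71 TPM, and Apoa2, Fgb and Ahsg at most 0.201 TPM. Goblet cell genes summed to 3355 to 9956 TPM in both polyps and knockout non-polyp, against 13815 to 24803 TPM in the others. Macrophage genes lay between 300.6 and 602 TPM, endothelial genes between 48.6 and 84.8 TPM, and fibroblast genes between 644 and 1370.2 TPM. Their part in the P450 levels was not tested.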

How the data were processed

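Colon RNA was sequenced in 8 libraries, 1 per group, and groups were read from the sample titles. The authors deposited coverage (the mean signal per base), FPKM and TPM for each gene, per the file headers. Per the submitters' processing notes, StringTie was used with GRCm38 (mm10). The sources used here name no version, aligner, annotation release or strand setting. The deposited TPM of annotated genes sums to 895587 to 940132 per library, and in 6 files loci assembled from the reads stand beside them and are not used in the tests, so that the deposited TPM column is treated as a signal that is comparable across libraries only approximately. Read counts are not given, so no counting interval is printed.

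Genes with several rows (13) and genes whose ratio of TPM to FPKM departed by over 0.1% (10) were left out, none of them a P450 gene. limma 3.58.1 (R 4.3.3) fitted stage and genotype, without interaction, to log2(TPM + 1) of 16855 genes that averaged 1 TPM or more, with an intensity trend, 3 residual degrees of freedom and Benjamini-Hochberg adjustment at 0.05. The scripts were tested on simulated data. Of 210 values of the 35 genes in the 6 files, 128 had an assembled locus with 80% reciprocal overlap, and 100 of those agreed within 10%. One of the others was Cyp2d12 in steady-state knockout, whose assembled locus had 115 TPM against the deposited 54.3 TPM. Besides that library, Cyp2d12 had such a locus only in wild-type polyp. Cyp2d9, Cyp21a1 and Cyp11a1, among others, had none in any of the 6 files, so their levels were not checked in this way. The P450 genes, role classes and gene lists were chosen with earlier results of these data known. The text names P450 genes that passed the threshold, the 2 highest and 2 lowest per contrast, the 3 most different per genotype pair and direction, the 10 highest in level and those nearest the limit. Other genes are named as examples chosen after their values were seen. Transcript and promoter identities came from alignments with Biopython 1.88. Alternatives were a pseudocount of 0.1, no filter on low values, median-of-ratios rescaling, no intensity trend, the 4 libraries of the stages compared, and each library left out in turn.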

Additional observations from a re-analysis of the deposited data

Results flagged for a closer look

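Cyp2c69 stood out because its genotype difference had opposite directions at 2 stages. Knockout minus wild type was 1.26 after DSS and −2.95 in non-polyp colon on the log2(TPM + 1) scale. The levels were 5.30 TPM in knockout and 1.63 TPM in wild type after DSS, and 0.298 TPM in knockout and 9.04 TPM in wild type in non-polyp colon. Cyp4b1 stood out because non-polyp minus steady state had opposite directions in the 2 genotypes, at −2.16 in knockout and 1.15 in wild type. Its levels in knockout were 0.136 TPM in non-polyp colon and 4.06 TPM at steady state, and in wild type 5.68 TPM in non-polyp colon and 2.01 TPM at steady state. Each value is 1 library, and neither difference between stages or genotypes was tested. Cyp2c69 is 96.4% to 97.8% identical in transcript to Cyp2c40, Cyp2c67 and Cyp2c68, and how shared reads were divided is not known.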

How the results depend on the processing

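Of the counts over settings 55 kept within 1.5 times the reported count and 20 did not. Counts of 0 that stayed at 0 are among the 55, including all those of the limma genotype and DSS contrasts. The tally is therefore no measure of stability for the contrasts with calls. Of the single-gene values 259 kept direction and side of the threshold, 37 lost the threshold, 18 gained it and 6 changed sign. Leaving out 1 library at a time gave 0 to 18 P450 genes called in non-polyp minus steady state, 0 to 22 in polyp minus steady state and 0 to 11 in polyp minus non-polyp, and 0 in the other 2 contrasts. The share of all genes called moved with these counts, from 0.0534% to 13.3% and from 0.0% to 25.7% in the contrasts with steady state. With no filter on low values both day 112 contrasts with steady state called 0, beside 0.0398% (non-polyp) and 0.0459% (polyp) of the 32649 genes then tested, and the cause was not tested. Rescaling by median-of-ratios called 1 in non-polyp minus steady state, beside 0.243% of all genes. Without both the knockout steady-state and knockout non-polyp libraries, chosen after seeing the data, polyp minus steady state called 15 beside 13.8% of all genes and polyp minus non-polyp 11 beside 9.85%. Genes at least 2-fold apart between genotypes numbered 2 at steady state, beside 8.47% of all genes, and 5 after DSS, beside 8.82%, with a pseudocount of 0.1, and 2 after DSS, beside 4.78%, with rescaling. Sign changes were those of Cyp21a1 for genotype (−0.17 without either non-polyp library and −0.25 without both doubted libraries, with a leave-one-out range of −0.17 to 1.58), Cyp2c65 for polyp minus steady state (0.45 without the knockout steady-state library and 0.0356 without both, with a leave-one-out range of −0.97 to 0.45) and Cyp2b10 for polyp minus non-polyp (−0.18 without the wild-type non-polyp library and up to 2.95 without the knockout one). None of these values as reported had passed the threshold, and the cause was not tested. No paired analysis was possible because each group holds 1 library with no replicate number in the labels. Read depth per gene is unknown, which limits genes near 1 TPM most.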
